A study of Zea mays with 7 samples.

Results

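Bins covered in B73 only are stretches of maize chromosome 2 where small RNAs immunoprecipitated from ears gave coverage in the inbred line B73 and almost none in the mop1-1 stocks. Chromosome 2 was divided into 243684 bins of 1 kb, and the coverage of each library was scaled to a sum of 1000000 units. A bin was taken when it held at least 8 units in both B73 libraries and at most 2 units in each of the 4 libraries of the mop1-1 stocks. 57 bins met this rule. Of the 12536 bins with at least 8 units in both B73 libraries, they made up 0.455%, while 3100 held at least 8 units in all 6 libraries. The bins were selected on these 6 libraries, so their levels in them are given as a description with no test.

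The study sequenced small RNAs recovered from immature ears with an antibody against the Argonaute protein AGO104, in 2 biological replicates per genotype. The paper is not uniform on this, since one legend gives mature ears and another speaks of both technical and biological repeats. B73 is an inbred line with functional mop1 and a neutral b allele at the b1 gene. Mm plants are heterozygous (Mop1-1/mop1-1) and mm plants homozygous (mop1-1/mop1-1) for the recessive mop1-1 mutation, both in a stock with the B' epiallele of b1. One further library, labelled ago104 and numbered as replicate 2, has no partner and took no part in the selection. Its label gives neither the allele, nor the zygosity, nor the background, although the study used an ago104-5 stock in B73. Small RNA coverage of 1 chromosome holds no marker genes by which the tissue could be checked. The labels name AGO104 and AGO105 antibodies together for every library, where the paper names AGO104 for its own. B73 differs from Mm and mm in background, in the b1 allele and in carrying no mop1-1 allele, and these differences cannot be told apart in bins where Mm and mm are both low. The mutant state of mop1 separates mm from Mm only, and the members were chosen to be low in both.

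In RNA-directed DNA methylation, RNA polymerase IV makes short transcripts of transposons and repeats, which the RNA-dependent RNA polymerase MOP1, the maize counterpart of RDR2, turns into double strands. Dicer cuts these into 24-nt siRNAs, which Argonaute proteins of the AGO4 and AGO9 groups carry back to matching loci, where methylation is added. In maize such siRNAs are plentiful near genes, and mop1 mutants lose most of them.

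Depth set how finely a bin could be read. Alignments on this chromosome numbered 2781590 and 4431623 in B73, 1555520 and 1417599 in Mm, 936656 and 1742053 in mm, and 20104173 in ago104. One alignment was worth between 0.0497 units in ago104 and 1.07 units in mm replicate 1. The limit of 2 units therefore stood for 1.87 alignments in mm replicate 1, 3.48 in mm replicate 2, 3.11 and 2.84 in the Mm libraries, and 40.2 in ago104. A level of 8 units stood for 22.3 and 35.5 alignments in B73.

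In the 57 bins, B73 replicate 1 ranged from 8.41 to 45.4 units with a median of 12.3. B73 replicate 2 ranged from 8.06 to 25.5 with a median of 10.4. Most members thus lay close above the limit, and few were deep. The 4 libraries of the mop1-1 stocks had medians of 0.725 and 0.649 units in Mm and 0.968 and 0.553 in mm, with highest values of 1.97, 1.98, 1.997 and 1.66. Behind these levels stood 2226 and 2894 alignments in B73, against 86 and 51 in Mm and 37 and 63 in mm, summed over all members. No alignment at all fell in 12 and 25 members in the Mm libraries and in 26 and 22 in the mm libraries. Only 3 members held none in all 4 of these libraries, namely those from 118942001 to 118943000, from 141964001 to 141965000 and from 196376001 to 196377000.

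**Figure D1:**
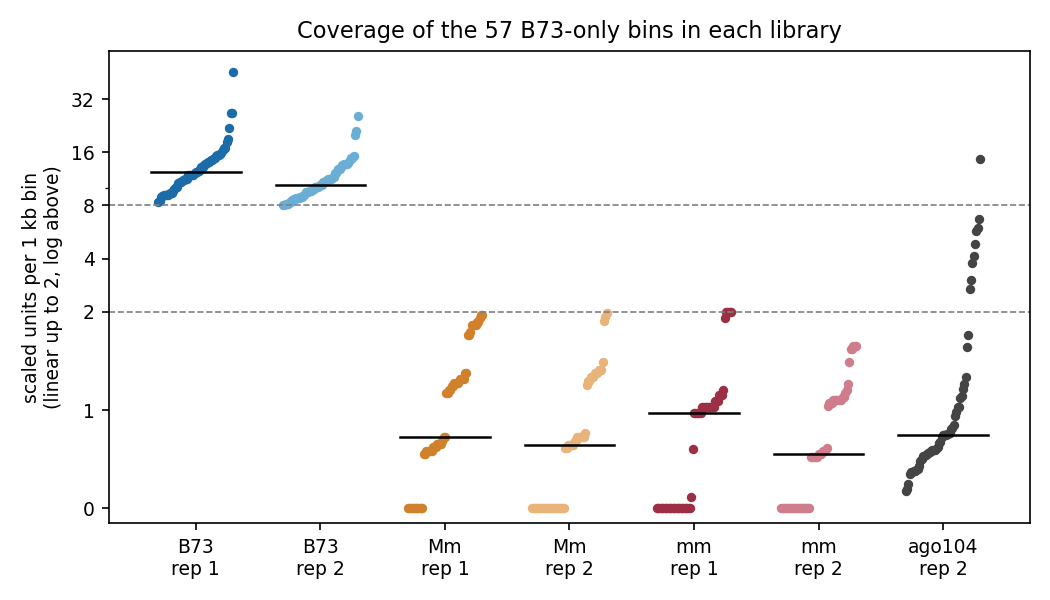
Coverage of each of the 57 bins in the 7 libraries, in scaled units per 1 kb bin on an axis that is linear up to 2 and logarithmic above, with points ordered by value within a library, bars at the median and dashed lines at 8 and 2. The B73 points lie above 8 and the Mm and mm points at or below 2 by selection, while 48 of the 57 ago104 points lie at or below 2.

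The deepest member by its lower B73 value was the bin from 150970001 to 150971000. It held 26.5 and 25.5 units in B73, 0.622 and 1.34 in Mm, 1.997 and 0.520 in mm, and 3.03 in ago104. Its B73 coverage was a narrow stack, since the fullest 50 bases held 89.7% of it, and 91.4% of its paired B73 alignments were 16 bases long. No protein-coding gene lay within 2 kb of it. The next was the bin from 73418001 to 73419000, which lies in the body of the protein-coding gene LOC100277287 together with its left neighbour from 73417001. It held 26.7 and 21.1 units in B73, 1.17 and 1.30 in Mm, 0 and 1.07 in mm, and 1.77 in ago104. Here the B73 coverage was spread over 440 and 530 of the 1000 bases, and 17 was the commonest aligned length.

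The pair from 36318001 to 36320000 was of the second kind. Its first bin held 21.98 and 19.99 units in B73, 0.691 and 0.611 in Mm, 0 and 0.585 in mm, and 0.505 in ago104. Its second bin held 14.0 and 14.9 units in B73, 1.87 and 1.98 in Mm, 0 and 1.11 in mm, and 1.22 in ago104. In both bins the ago104 value lay among or below those of the mop1-1 stocks. Of the 10 members with the highest lower B73 value, the bin from 118942001 to 118943000 had the cleanest separation, with 15.9 and 13.5 units in B73 against 0 in all 4 libraries of the stocks and 0.374 in ago104. The bin from 225514001 to 225515000, within 2 kb of the protein-coding gene LOC103647964, held 18.4 and 15.2 units in B73, 1.97 and 1.49 in Mm, 1.03 and 1.11 in mm, and 0.728 in ago104. It was one of 5 members where 19 was the commonest length. The remaining 4 of these 10, from 176534001, 73417001, 81979001 and 8762001, ranged from 13.5 to 15.4 units in B73 and from 0.529 to 1.26 in ago104.

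The most unequal member was the bin from 84322001 to 84323000, singled out after its values were seen. It held 45.4 units in B73 replicate 1 and 11.5 in replicate 2, 1.28 and 1.26 in Mm, 1.997 and 0.520 in mm, and 14.7 in ago104. It was the only member at or above 8 units in ago104, and 93.5% of its B73 coverage lay within 50 bases. The bin from 194458001 to 194459000 was a member through the edge of a stack that began in the bin to its left, since only 6 and 2 B73 alignments started within it.

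Values just inside and just outside the limits were close. The lower B73 value was 8.06, 8.09 and 8.11 units in the members from 158277001, 86331001 and 195959001. It was 7.995, 7.986 and 7.986 in the excluded bins from 68771001, 201486001 and 216026001. The highest value in the stocks was 1.997 in the members from 12258001, 84322001 and 86331001, against 2.004, 2.004 and 2.02 in the excluded bins from 141813001, 196344001 and 12257001. These 6 excluded bins held 0.317 to 1.05 units in ago104, whereas the members at these limits ranged from 0.487 to 14.7.

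Coverage of the members lay on part of their bases. The median member had 262 and 356 covered bases in B73, 20 and 17 in Mm, 16 and 17 in mm, and 190 in ago104. In the 12536 bins with at least 8 units in both B73 libraries, the B73 medians were 247 and 301. Coverage of the members in B73 was thus no sparser than in those bins. Together the B73 libraries covered 41.8% of the bases of the members. Of the bases covered in B73 replicate 1, 66.5% were covered in replicate 2, and the reverse share was 52.3%. Of the coverage that the other libraries had in the members, 55.5% and 62.1% in Mm, 67.2% and 69.6% in mm, and 74.5% in ago104 lay on these bases. Each share was above the 41.8% that the bases themselves make up, with no test made. The shares are weighted by depth and pooled over members, so deep members count most. In ago104, 1 member held 14.7 of the 85.7 units summed over members. The Mm shares rest on 86 and 51 alignments and the mm shares on 37 and 63.

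Members fell into a spread and a stacked kind. In 47 members the fullest 50 bases held at most 56.0% of the B73 coverage, with a median of 22.2%, and in the other 10 they held at least 79.9%. None lay between, and this division was chosen after the values were seen. The spread members had medians of 304 and 387 covered bases in B73, and 44 of the 47 had 17 as their commonest length. The stacked members had medians of 117.5 and 113 covered bases, and 2 of the 10 had 17 as their commonest length. In ago104, 46 of the 47 spread members and 2 of the 10 stacked members held at most 2 units. Over the 12536 B73 bins of both kinds, 13.3% had 17 as the commonest length and 1.96% held at most 2 units in ago104. The share in the fullest 50 bases was not read in bins other than the members. Whether B73 bins in general divide in the same way was therefore not tested.

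To see whether libraries that did not choose a bin would place it on the same side, the rule was applied to 1 replicate of each genotype and read in the other. With replicate 1, 292 bins met the rule, and 57 of them, 19.5%, also met it in replicate 2. Their B73 value in replicate 2 was at least 8 in 37.3% of bins, and their Mm and mm values at most 2 in 58.2% and 68.8%. Of all 16986 bins with at least 8 units in B73 replicate 1, 12536 held at least 8 in replicate 2, a larger share than 37.3%. Among those 12536 bins, Mm and mm replicate 2 were at most 2 in 2.25% and 38.1%. They are no like background for the 292 bins, since all of them held at least 8 units in B73 replicate 2. With replicate 2 as the chooser, 180 bins met the rule and the same 57, or 31.7%, also met it in replicate 1, where B73 was at least 8 in 74.4%. Mm and mm replicate 1 were at most 2 in 67.8% and 57.2% of the 180 bins. In the 12536 bins, with the same limit to the comparison, these shares were 2.38% and 24.9%. Of all 16006 bins with at least 8 units in B73 replicate 2, 12536 held at least 8 in replicate 1. The held-out medians were 6.12 units in B73 against 1.41 in Mm and 1.14 in mm in the first direction, and 11.1 against 1.28 and 1.15 in the other. The held-out B73 median thus stayed above those of the stocks in both directions, although most chosen bins did not meet the whole rule again. With a single library per genotype in each reading, no test was possible.

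Leaving out 1 library at a time showed which library narrowed the set most. Without B73 replicate 2 the rule gave 129 bins, of which 26, or 20.2%, held at most 2 units in that library. Without B73 replicate 1 it gave 76, of which 57 held at least 8 units in that library and 0 held at most 2. Without mm replicate 1 it gave 94 bins, and without Mm replicate 1, Mm replicate 2 or mm replicate 2 it gave 78, 81 and 69. In these 4 sets the library left out held at most 2 units in 60.6%, 73.1%, 70.4% and 82.6% of the bins. The set without both mm libraries numbered 155 bins and the set without both Mm libraries 2331. Among the 12536 bins of B73, single Mm libraries were at most 2 in 2.38% and 2.25%, and single mm libraries in 24.9% and 38.1%, so a low value in Mm was the rarer condition.

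Members were scattered as single bins and formed no long domain. The 57 bins made 53 runs, of which 49 were single bins and 4 were pairs. Joined across gaps of up to 100 kb, they made 49 blocks, of which 43 held 1 member. The median distance from a member to the next was 1971.5 kb and the largest 21502 kb. The largest block held 4 members, from 196376001 to 196484000, and ago104 was between 0.196 and 0.406 units in all 4. One of these, from 196376001, overlapped the protein-coding gene LOC118476257, and the adjacent pair from 196453001 to 196455000 belonged to the same block. The other blocks with more than 1 member beyond adjacent pairs were those from 212195001 to 212211000, with ago104 at 0.390 and 0.607 units, and from 236463001 to 236544000, with ago104 at 6.69 and 4.84 units. The remaining pair, from 33697001 to 33699000, held 0.372 and 0.547 units in ago104.

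Per 10 Mb of the chromosome, members were most frequent from 80 to 90 Mb, where 8 lay among 399 B73 bins, or 2.01%. The next were 7 members from 190 to 200 Mb, or 1.19% of 587, and 6 from 150 to 160 Mb, or 1.36% of 441. No member lay in the segments that begin at 20, 50, 120, 200 and 240 Mb. All 8 members from 80 to 90 Mb and 6 of the 7 from 190 to 200 Mb had 17 as their commonest length, against 3 of the 6 from 150 to 160 Mb. The member nearest to the b1 tandem repeats, which control b1 from a distance, was the bin from 12258001 to 12259000, 7502 kb away. The member nearest to the mop1 gene was the bin from 40901001 to 40902000, 1256 kb away. It was a stacked member with 14.9 and 8.15 units in B73, 1.31 and 1.37 in Mm, 1.15 and 1.66 in mm, and 4.12 in ago104.

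Around the members, B73 coverage fell away within a few kb. The median in B73 was 5.91 and 4.91 units in the bin before a member and 4.84 and 4.75 in the bin after it, other members left out. Of the 106 bins that adjoin a member, 78 held over 2 units in both B73 libraries and 20 held at least 8. In 65 of them a library of the mop1-1 stocks held over 2 units, so the neighbour failed on that side, and in 41 none did. The ago104 library held at most 2 units in 88 of the 106. Over the chromosome, 19529 of the 243684 bins held at least 8 units in ago104. The share at most 2 in other bins with a B73 level like that of the neighbours was not read. The count of 88 therefore has no background beside it. The stretch of adjoining bins with over 2 units in both B73 libraries and at most 2 in the stocks was 1 kb long for 28 members, with a median of 2 kb and a maximum of 4 kb.

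**Figure D2:**
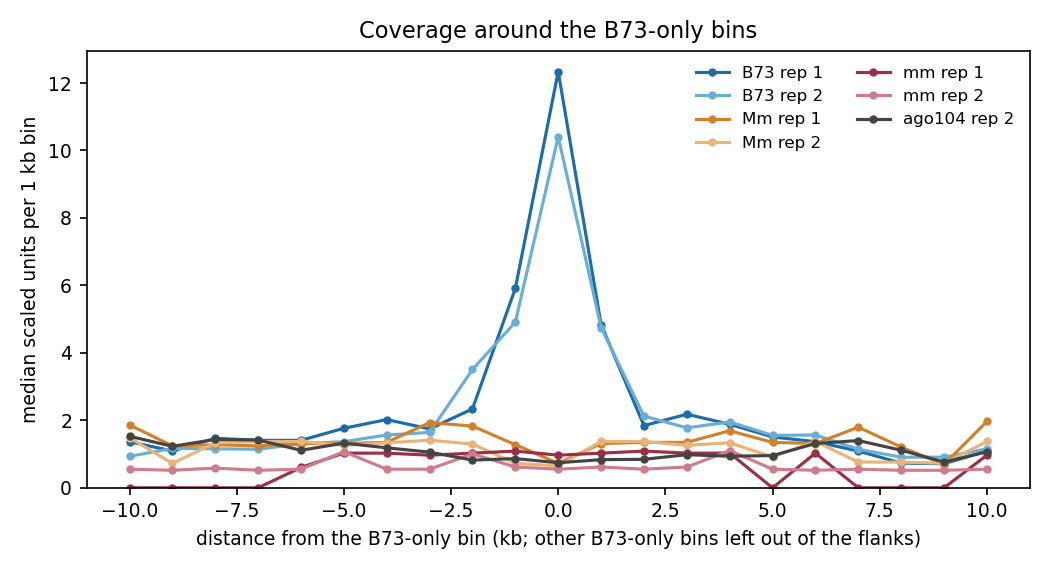
Median coverage, in scaled units per 1 kb bin, of bins at each distance in kb from the 57 members, by library. Both B73 lines peak at the member, at 12.3 and 10.4 units, by selection, and stand at 5.91 and 4.91 in the bin before it and 4.84 and 4.75 in the bin after it.

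Members lay mostly away from protein-coding genes. RefSeq genes (assembly Zm-B73-REFERENCE-NAM-5.0), moved to the coordinates of the coverage by offsets read from tRNA genes, put 6 members, or 10.5%, in the body of a protein-coding gene, against 21.1% of the 12536 B73 bins. The share was 18.8% of 64 bins when the bins were shifted by 500 bases and 16.05% when Mm replicate 2 was left out of the rule, both nearer to that of the B73 bins. A further 5 members, or 8.77%, lay within 2 kb of one, against 17.5%. No member overlapped an annotated gene of another type. Of these types, pseudogenes overlapped 2.38% of the B73 bins, lncRNA genes 1.60%, tRNA genes 0.566% and rRNA genes 0.550%. The other 46 members, or 80.7%, neither overlapped a gene nor lay within 2 kb of a protein-coding one, against 57.3% of the B73 bins. This was not particular to the members. The share was 82.6% in the 155 B73 bins low in both Mm libraries. It was 87.4% in the 87 bins with at least 8 units in every stock library and at most 2 in both of B73. The genes overlapped were LOC103648413 by the bin from 12258001, LOC100277287 by 2 bins, LOC103647061 by the bin from 145899001, LOC118476376 by the bin from 157519001 and LOC118476257. Those within 2 kb were LOC118476278, PER66, LOC103647964, LOC103648180 and LOC118476444, by the bins from 8300001, 223551001, 225514001, 236463001 and 236543001. Of the 5 members with 19 as their commonest length, 4 lay within 2 kb of a protein-coding gene and 1 in the body of one. Of the 7033 B73 bins with 19 as the commonest length, 22.6% lay within 2 kb and 19.2% in a body. The counts of members are from small groups and were not tested.

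No limit on aligned length was part of the rule, but its value is length times depth, so length enters it. This weighs most where few alignments count, as in mm replicate 1, where 2 units stood for 1.87 alignments. An isolated stretch is an interval of coverage that touches no other, so that its length is that of the alignments in it. Among isolated stretches of 16 to 21 bases in the members, weighted by depth, 17 bases made up 57.1% in B73 replicate 1 (212 of 371, 95% Clopper-Pearson interval 51.9 to 62.2) and 46.9% in replicate 2 (157 of 335, 41.4 to 52.4). In the 10174 other bins of like B73 level, 17 bases made up 15.7% and 15.6%. The share of 19 bases showed the reverse, with 10.2% and 14.3% in the members and 39.2% and 39.3% in the other bins. The excess of 17 bases was thus 41.5 and 31.2 percentage points in the B73 libraries. By this measure a higher share was also found in the 87 bins with the opposite pattern, at least 8 units in all 4 stock libraries and at most 2 in both of B73. There 17 bases made up 35.5% and 32.4% in Mm and 54.4% and 55.8% in mm, against 14.99% and 14.7%, and 32.8% and 34.03%, over the chromosome in the same libraries. The intervals cover counting error only, since reads amplified by PCR are not independent molecules, and with 2 libraries no test was made within B73. How an aligned length relates to the length of the read is not given in the sources used here.

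**Figure D3:**
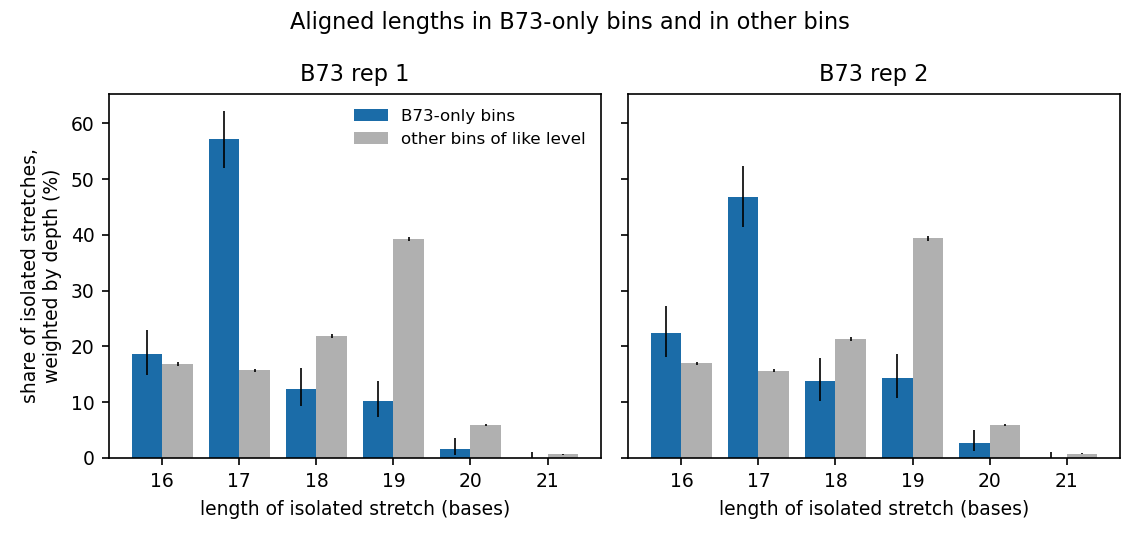
Share of isolated stretches of each length from 16 to 21 bases, in percent and weighted by depth, for members and for the 10174 other bins of like B73 level in each B73 library, with 95% Clopper-Pearson intervals as bars. At 17 bases the members stand at 57.1% and 46.9% against 15.7% and 15.6%, and at 19 bases at 10.2% and 14.3% against 39.2% and 39.3%.

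The excess depended on how a stretch was defined. Among all alignments, reconstructed by matching each rise in depth to a later fall, 17 bases made up 50.4% and 48.0% in the members and 19.1% and 22.05% in the other bins. Among stretches with no other covered base within 50 bases, the shares were 37.5% and 32.7% in the members and 16.9% and 15.3% in the other bins. The members stood above the other bins in both libraries each time.

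Single members showed the same split. The commonest paired length was 17 in both B73 libraries in 46 of the 57 members, or 80.7%, against 13.3% of the 12536 bins of B73 and 11.5% of the bins of like level. In 47 members at least 45% of the B73 alignments were 17 bases long, in 8 members under 10% were, and 2 lay between. In the bins of like level these shares were 11.3%, 62.4% and 26.4%. The 5 members with 19 as the commonest length began at 8300001, 157519001, 225514001, 236463001 and 236543001. Of the 6 with neither, those from 150970001 and 158277001 had 16 as their commonest length in both B73 libraries, and in the other 4 the B73 libraries differed. The low value in Mm and the length of 17 bases occurred together, since 17 was the commonest length in 68.4% of the 155 bins of B73 that were low in both Mm libraries, and in 3.65% of the 2331 that were low in both mm libraries.

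In the same bins the other libraries had few stretches to read. Isolated stretches of 17 bases made up 26.9% of 78 and 34.7% of 49 in the Mm libraries, and 45.5% of 33 and 39.2% of 51 in the mm libraries. The mean was 52.0% ± 7.27 (SD, n = 2) in B73 and 36.6% ± 7.80 (SD, n = 4) in the stocks, a difference of 15.4 percentage points, which is given with no test because the length of 17 was picked from the B73 alignments of these members. For 19 bases the means were 12.3% ± 2.89 and 18.0% ± 16.1, a difference of -5.71 points (two-sided exact permutation test, p = 0.800, where 2 libraries against 4 cannot give a p below 0.0667). The bins were selected to be high in B73 and nearly empty in the stocks, so this test rests on few stretches. The limit of 2 units also lets fewer long alignments pass than short ones, so the selection partly set the stock lengths. The test therefore cannot show whether the shares are alike. With isolation by 50 bases both differences changed sign, to -3.11 and 4.58 points, and without Mm replicate 1 that for 19 bases became 1.12. The 4 stock libraries pool both genotypes, and the share of 19 bases was 38.5% and 22.4% in Mm against 9.09% and 1.96% in mm, so their SD is not the spread between replicates of 1 genotype.

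The ago104 library, which had no part in the choice, took the side of the mop1-1 stocks in most members. It held at most 2 units in 48 of the 57, or 84.2%, against 1.96% of the 12536 bins of B73. It held at least 8 units in 1 member, or 1.75%, against 88.8% of those bins, and lay between the limits in 8, so B73 only is meant of the 6 libraries of the rule. Over the members it ranged from 0.181 to 14.7 units with a median of 0.744. The median ratio of ago104 to the mean of the B73 libraries was 0.0665 in the members and 1.08 in all bins of B73. On the log2 scale, with 1 unit added, ago104 was nearer to the mean of the stocks in 51 members and nearer to that of B73 in 6. It was below both B73 libraries in 56 members and above all 4 libraries of the stocks in 17. With 1 library, this is a description of that library and no test of a genotype.

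In all, 1769 ago104 alignments fell in the members, and each member held at least 4. In the 2071 bins with no coverage in the other 6 libraries, ago104 ranged from 0 to 2.79 units with a median of 0.152. The members had a median of 0.744, and their lowest value, 0.181, lay above the median of those bins. The range of those bins still overlaps that of most members. The share at most 2 units in ago104 was also read in the sets chosen with 1 library fewer. It was 82.9% without B73 replicate 1, 64.3% without B73 replicate 2, and between 71.6% and 76.8% without 1 of the 4 other libraries. It was 62.6% without both mm libraries and 3.30% without both Mm libraries, so it was high only where the Mm libraries were part of the rule. In the 87 bins with the opposite pattern, ago104 held at least 8 units in 38, or 43.7%, and at most 2 in 0.

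Length and the side of ago104 went together. Among the 46 members with 17 as the commonest length, ago104 held at most 2 units in 44, with a median of 0.614. Among the 5 with 19 it did so in 2, with a median of 4.84, and among the 6 with neither in 2, with a median of 2.86. The 2 exceptions among the 46, from 84322001 and 145899001, were both stacked members. Across all bins of B73, those with 17 as the commonest length were at most 2 in ago104 in 13.7% of cases and at least 8 in 66.9%, whereas those with 19 were at most 2 in 0.0995% and at least 8 in 95.5%. Of the 246 bins of B73 at most 2 in ago104, 227, or 92.3%, had 17 as the commonest length, and 48 were members.

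**Figure D4:**
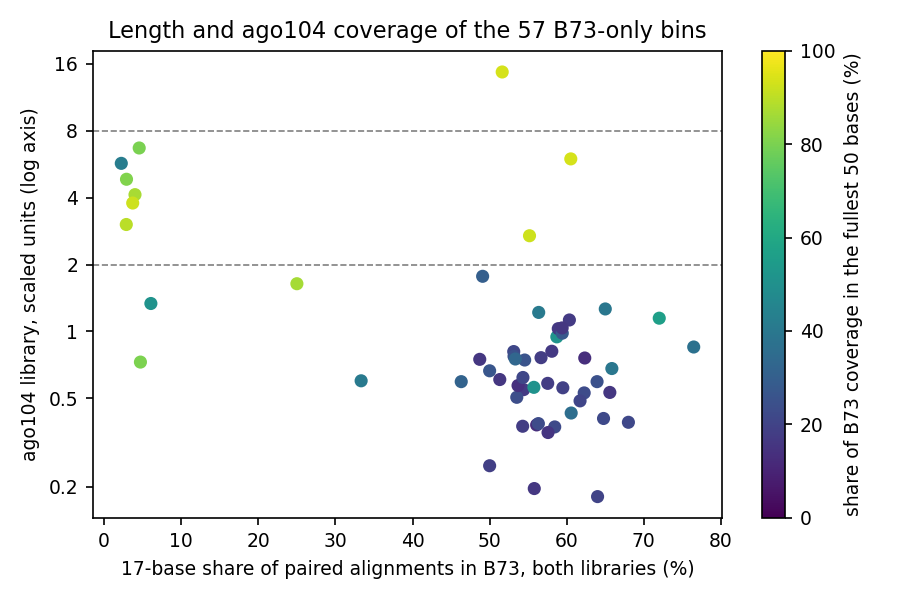
Coverage of the ago104 library, in scaled units on a logarithmic axis, against the 17-base share of paired B73 alignments in percent, for each of the 57 members, coloured by the share of B73 coverage in the fullest 50 bases, with dashed lines at 8 and 2 units. The members with a share over 45% lie at or below 2 units except those with stacked coverage.

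The 8 members between the limits in ago104 began at 40901001, 145899001, 150970001, 157519001, 158277001, 168568001, 236463001 and 236543001, with 2.69 to 6.69 units. All but the one from 157519001 were stacked. The lengths of the ago104 alignments in the members depended on the measure. Isolated stretches of 17 bases made up 16.5% of 425 in ago104 and those of 19 bases 36.5%, against 14.7% and 39.97% in that library over the chromosome. The 95% Clopper-Pearson intervals in the members, 13.1 to 20.3 and 31.9 to 41.2, include both chromosome-wide shares. Among paired alignments the share of 17 bases in ago104 was higher in the members, at 25.4% of 1672 (23.3 to 27.5), than over the chromosome, at 18.9%, and it was 33.1% in the members with 17 as the commonest length in B73. The bin from 84322001 alone gave 313 of these paired alignments, of which 60.1% were 17 bases long. Without this bin the share of 17 bases in the members was not above that over the chromosome. It also had 17 as its commonest length in B73, so the 33.1% rests in part on it.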

How the data were processed

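Small RNAs were read in 7 libraries. For B73, Mm and mm the paper describes AGO104 immunoprecipitates, from immature ears in its text and from mature ears in a legend. It does not describe the ago104 library. The authors deposited a coverage signal, that is the number of reads over each stretch of chromosome 2, unscaled and in whole numbers. According to the paper and the submitters' processing notes, reads were trimmed with Trimmomatic and aligned with Bowtie 1.2.2, with multiple placements kept, and coverage was made with bedtools. Which alignment the tables hold is not given in the sources used here. Multiple placements cannot be undone from coverage.

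Interval length times depth was summed per 1 kb bin and scaled to 1000000 per library. Each rise in depth was read as a start and matched to a later fall as its end, first to first, and 91.7% to 99.3% of these pairs per library were 16 to 21 bases long. Genes were moved by -2 bp before b1 (17 tRNA genes) and 7855 bp beyond it (136 tRNA genes). Bin positions are given in the coordinates of the coverage. Beyond b1 they are therefore 7855 bp higher than in the RefSeq assembly. Bins of like B73 level hold at least 8 units in both B73 libraries, with a lower B73 value no higher than that of the deepest member. The steps were tested on simulated data. Python 3.11.15 with numpy 2.4.6, pandas 2.3.3, scipy 1.17.1 and matplotlib 3.10.9 was used.

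Named bins are the 10 members with the highest lower B73 value, runs and blocks, bins at the limits, and those nearest to b1 and mop1. Others were chosen after their values were seen. The members, lists and length measures were chosen with earlier results of these data known. Alternatives changed the scaling, limits, bin position, value, libraries, isolation and block. Lists by gene description were not run, since the gene table used here has no descriptions. The 10 tables named by a length class state no genotype or build and were not used.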

Additional observations from a re-analysis of the deposited data

How the results depend on the processing

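The number of members was 52 to 64 with other scalings or bins shifted by 500 bases. It was 29 by covered bases, 3 and 260 with B73 limits of 16 and 4, 13 and 3 with stock limits of 1 and 0, 155 without the mm libraries, 2331 without the Mm libraries, and 69 to 129 with 1 library left out. The share at most 2 units in ago104 was 41.4% by covered bases, 66.7% at a limit of 16 (74.2% at 4), 100% at stock limits of 1 and 0, 62.6% without mm, 3.30% without Mm, and 64.3% to 82.9% with 1 library left out. The share at or above the B73 limit in ago104 was 0% by covered bases, at the limit of 16 and at both stock limits, 10.4% at the limit of 4, 89.7% without Mm, and 10.5% by nearness on the log2 scale. The share with 17 as the commonest length was 66.7% and 66.2% at limits of 16 and 4, 92.3% and 100% at stock limits of 1 and 0, 3.65% without Mm, and 54.3% to 81.6% with 1 library left out. The share in protein-coding genes was 18.8% with shifted bins, 8.97% to 16.05% with 1 library left out, 3.45% by covered bases and 33.3% at the limit of 16 and the stock limit of 0, each with few bins. The number of blocks was 3 at the limit of 16.

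The excess of 17 bases within B73 was 36.4 percentage points on average, 19.02 with isolation by 50 bases and 28.7 among paired alignments. Between B73 and the stocks, the difference at 17 bases became -3.11 points and that at 19 bases 4.58 with isolation by 50 bases, and the latter was 22.04 with the B73 limit of 16 and -11.0 to 1.12 with 1 library left out. With the replicate number as a block, both differences were as before, 15.4 and -5.71 points, and the exact permutation p at 19 bases was 0.778, of a smallest possible 0.111. No source says that a replicate number marks a shared ear or day. The share of bins chosen on 1 replicate that met the rule in the other was 19.5%, and 31.7% in the reverse direction. The causes of these changes were not tested. One alignment weighs 1.07 units in mm replicate 1, so a low value there is set by counting.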
